A study of Mus musculus with 8 samples.

Results

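The genes described here are 30 genes of the T cell lineage, measured in thoracic aortas of Fto -/- and Fto +/+ mice. Of these, 16 were listed as developing T cell genes and 14 as mature T cell genes. The names of the lists are labels and were not tested as markers of a stage. Genes of the developing list need not be limited to developing T cells, and Cd1d1, for example, is found on many cell types. The members are 30 of the 21364 genes that could be named on the array. Each was followed by its probe of highest mean log2 intensity. The 30 genes were chosen by an earlier reading of these same intensities, in which Rag1 was bright on some arrays and dark on others. The probe was selected on its mean intensity. The pattern over arrays is therefore a description and carries no test.

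The study compared 4 aortas of Fto -/- mice with 4 of Fto +/+ mice by labelling total RNA with Cy3 and hybridising it to 1-colour Agilent mouse arrays. FTO is a demethylase of RNA, best known from its link to body weight. Per the labels all animals were male and of a C57BL6J/NMRI background, and RNA was used only with an integrity number above 8. Age, how the Fto allele was made, how the aorta was trimmed of surrounding tissue, and whether each sample was a separate mouse are not given in the sources used here, so a p-value here speaks of the spread between arrays, which may be technical.

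Fto itself fitted the genotype in the titles. Its intensity was 64.98, 70.1, 49.9 and 49.2 in Fto -/- and 567, 751, 529.8 and 409 in Fto +/+, 8.52-fold lower in Fto -/- (log2 difference -3.09 ± 0.15 SE, adjusted p = 0.000367 by limma, n = 4 and 4). The description field gives the other genotype for all 8 samples, and the groups here follow the titles. The label of male sex also met a conflict: Xist, an RNA made from the inactive X chromosome, was between 663 and 1255 with its brighter probe on all 8 arrays, and Eif2s3y, Zfy1, Ddx3y and Kdm5d, all of the Y chromosome, were not well above background on any. Of 2 probes of Uty, also of the Y chromosome, 1 was above background on 1 array, at 208. The tissue markers fitted the labelled aorta, with 8 of 8 smooth muscle genes and 8 of 8 endothelial genes well above background on all 8 arrays. Between 44.5 and 47.8% of probes were well above background on each array, and the 75th percentile of intensity, to which each array was scaled, lay between 262 and 367.

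T cells arise in the thymus, a gland that sits in the chest above the heart and beside the great vessels. Thymocytes first cut and rejoin their T cell receptor genes with the RAG1 and RAG2 recombinase while the polymerase encoded by Dntt adds bases at the joints. They test the rearranged beta chain in a pre-receptor with the chain encoded by Ptcra, pass through a stage that carries both CD4 and CD8, and leave as mature cells that have shut off recombination but keep the CD3 complex and its kinases.

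The promoter sequences of 6 genes are shown so that genes of the same step can be read side by side: Rag1, Rag2 and Ptcra of recombination and the pre-receptor, and Cd3d, Cd3e and Cd3g of the CD3 complex. In the values that follow, the probe of Cd3e differs from those of Cd3d and Cd3g. Rag2 has another order of arrays than Rag1, but only through arrays not well above background, so that difference is not firm. The 6 genes were picked with both the values and the words they hold known. Each is the 250 bases before the transcription start in RefSeq (GRCm38.p6), 5′ to 3′ on the gene's strand, with capitals marking the word CAGCTG, and the word CAGGTG in either direction, which reads CACCTG from the other strand. Such 6-letter words are E-boxes, which E proteins, transcription factors of early lymphocytes, are known to bind. Rag1 (chr2:101649533-101649782, minus strand) has such words 135 and 128 bases before the start, Ptcra (chr17:46763713-46763962, minus strand) 60 and 49, Cd3d (chr9:44981536-44981785, plus strand) 112, and Cd3g (chr9:44980432-44980681, minus strand) 148 and 35. Rag2 (chr2:101624462-101624711, plus strand) and Cd3e (chr9:45009612-45009861, minus strand) have none.
Rag1: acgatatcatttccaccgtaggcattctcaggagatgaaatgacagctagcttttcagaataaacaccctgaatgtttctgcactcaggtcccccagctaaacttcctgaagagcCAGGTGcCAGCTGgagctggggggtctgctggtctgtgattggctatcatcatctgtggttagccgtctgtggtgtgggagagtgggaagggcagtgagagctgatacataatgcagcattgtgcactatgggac
Rag2: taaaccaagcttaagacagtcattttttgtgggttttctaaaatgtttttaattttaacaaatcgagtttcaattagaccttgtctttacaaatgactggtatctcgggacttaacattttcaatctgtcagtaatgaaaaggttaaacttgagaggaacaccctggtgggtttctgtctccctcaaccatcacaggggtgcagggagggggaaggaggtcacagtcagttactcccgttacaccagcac
Ptcra: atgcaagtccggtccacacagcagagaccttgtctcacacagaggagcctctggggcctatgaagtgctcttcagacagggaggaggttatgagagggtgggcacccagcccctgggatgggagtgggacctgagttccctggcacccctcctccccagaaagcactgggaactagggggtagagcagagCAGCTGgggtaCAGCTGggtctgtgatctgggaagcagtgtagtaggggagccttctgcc
Cd3d: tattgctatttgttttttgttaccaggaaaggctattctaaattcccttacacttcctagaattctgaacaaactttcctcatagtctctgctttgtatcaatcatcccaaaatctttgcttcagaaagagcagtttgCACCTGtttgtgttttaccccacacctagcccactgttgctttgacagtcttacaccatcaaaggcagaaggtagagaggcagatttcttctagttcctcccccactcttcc
Cd3e: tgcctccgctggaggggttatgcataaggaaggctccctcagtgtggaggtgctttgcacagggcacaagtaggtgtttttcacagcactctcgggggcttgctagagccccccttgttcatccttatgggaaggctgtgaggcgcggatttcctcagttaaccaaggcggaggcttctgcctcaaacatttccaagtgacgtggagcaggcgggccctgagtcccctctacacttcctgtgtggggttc
Cd3g: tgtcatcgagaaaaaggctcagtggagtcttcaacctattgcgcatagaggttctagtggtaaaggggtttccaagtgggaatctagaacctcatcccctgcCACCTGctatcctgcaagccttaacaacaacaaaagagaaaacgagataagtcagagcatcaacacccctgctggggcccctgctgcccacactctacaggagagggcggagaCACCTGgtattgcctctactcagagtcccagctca
Promoters of 22 of the 30 genes were in the RefSeq table, as 43 windows, and 17 of these windows (39.5%) held at least 1 of the words on either strand, against 27.7% of all 32851 windows of the same length. Windows of one gene can overlap, and Arpp21 alone gave 9 of the 43. Counted by gene, 12 of 22 (54.5%) held a word in at least 1 window, against 30.6% of all 27025 genes in the table. The 22 genes had 43 windows and all 27025 genes had 32851 windows, so the members had more windows per gene. These 2 shares by gene are therefore not like for like. They were not adjusted for the members' added chances to hold a word. The Dntt promoter held none, though the values of Dntt that follow go with those of Rag1. Arpp21 held a word in 5 of its 9 windows, and Cd247 held 1 word, 10 bases before the start. Neither has the order of Rag1 in the values that follow, though both were dim. The genes shown therefore do not stand for all members of their groups. The match describes letters in these windows only.

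Most of these genes were high on the same aortas and low on the same others, and the split ran across the genotypes. The 4 highest arrays were the same for 19 of the 30 genes: Fto -/- replicates 1, 3 and 4 and Fto +/+ replicate 2. Those 19 were 10 of the 16 developing and 9 of the 14 mature T cell genes. Of all 25304 probes tested, 2.41% had these same 4 highest arrays, and of the probes well above background on all 8 arrays 2.27% had. Since the members were chosen with this in view, the count is not set against that share as evidence. In whole tissue, fewer T lineage cells and less RNA per cell cannot be told apart.

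**Figure D1:**
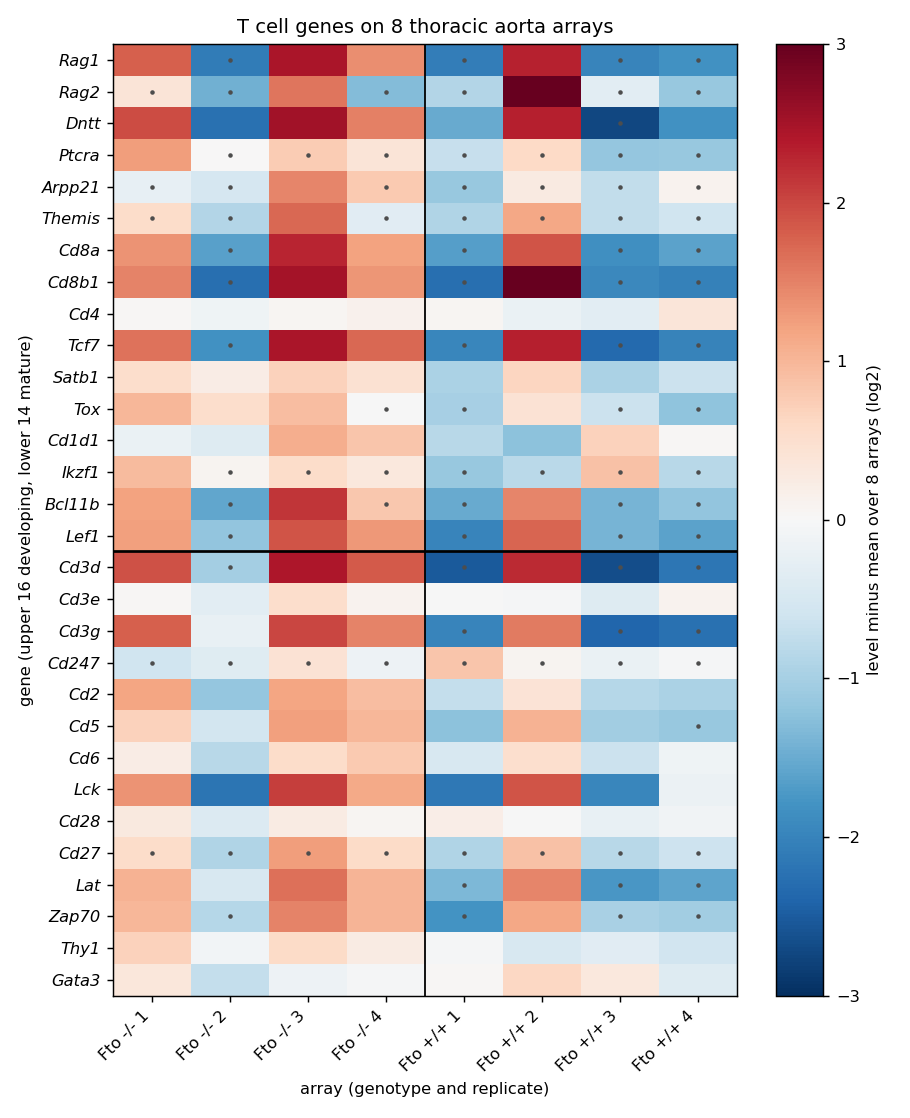
Heat map of the 30 T cell genes (rows, 16 developing above the line and 14 mature below it) on the 8 arrays (columns). Colour is the log2 level minus the gene's mean over the 8 arrays, colours stop at 3 on either side, and a dot marks an array on which the probe was not well above background. Fto -/- replicates 1, 3 and 4 and Fto +/+ replicate 2 are the 4 highest for 19 genes, while Cd4, Cd3e and Cd28 are pale across the row.

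How bright a gene was limits what the pattern says. Of the 30 probes followed, 10 were well above background on all 8 arrays, 12 on 4 to 7 arrays, 6 on 1 to 3, and those of Cd247 and Cd27 on none. For 7 genes the arrays above background were exactly those 4, so the dark side of their pattern is only a bound. The 19 genes also include Ptcra and Themis, above background on 1 array each, and Cd27, above it on none, and values near the floor have no firm order. Among the 10 genes measured on every array, 4 had the same 4 highest arrays: Satb1, Cd2, Cd6 and Lck. In the sentences that follow, values are background-subtracted intensities before any scaling between arrays, listed for replicates 1 to 4 of each genotype. Amounts are compared only within a gene, since brightness differs between probes for reasons unrelated to RNA amount. Where the brightest probes of a list are named, nothing about amount is meant.

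Among the 5 recombination and pre-receptor genes, Rag1, Dntt and Ptcra had the shared 4 arrays highest. Rag1, the recombinase subunit that cuts DNA, had intensities of 110.5, 6.48, 139 and 76.4 in Fto -/- and 7.60, 175, 8.32 and 7.76 in Fto +/+. It was well above background on 4 arrays and near the floor on the other 4, among them one Fto -/- aorta. Dntt, which encodes terminal deoxynucleotidyl transferase, had intensities of 872, 41.6, 1019 and 581 in Fto -/- and 78.97, 1269.8, 34.8 and 54.7 in Fto +/+. All 4 Fto -/- arrays and 3 of the 4 Fto +/+ arrays measured it above background, and its 4 highest arrays were at least 3.03 (log2) above every other. This step, from the lowest of the 4 highest arrays to the highest of the others, is called the gap from here on. Where the arrays under it were not well above background, it is a difference from values near the floor and not an exact difference in RNA. Rag2, the partner of Rag1, had intensities of 26.2, 6.34, 48.5 and 7.32 in Fto -/- and 10.8, 188, 16.3 and 7.77 in Fto +/+. It was above background only on Fto -/- replicate 3 and Fto +/+ replicate 2, and its 4 highest arrays include Fto +/+ replicate 3 in place of Fto -/- replicate 4, so it is not among the 19. Neither of the exchanged arrays was well above background for Rag2, so this order is not firm.

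Ptcra, the pre-receptor alpha chain, had intensities of 56.7, 20.95, 31.9 and 28.5 in Fto -/- and 14.7, 40.4, 10.9 and 9.26 in Fto +/+. It was above background on 1 array, Fto -/- replicate 1, and its 4 highest arrays were the shared ones. Arpp21, a phosphoprotein gene used as a marker of thymocytes with both coreceptors, had intensities of 18.4, 13.2, 47.3 and 33.6 in Fto -/- and 9.90, 29.2, 13.4 and 19.8 in Fto +/+. Only Fto -/- replicate 3 was above background, and at the level scaled to the array Fto +/+ replicate 4 lay above Fto -/- replicate 1, so its order differs from that of Rag1.

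Both chains of the CD8 coreceptor followed Rag1, and the brighter probe of Cd4 did not. Cd8a had intensities of 80.1, 8.84, 121 and 65.4 in Fto -/- and 10.1, 128, 8.92 and 8.85 in Fto +/+. Cd8b1 had intensities of 100.5, 6.46, 160.4 and 82.03 in Fto -/- and 7.49, 363, 9.63 and 7.54 in Fto +/+, with Fto +/+ replicate 2 the highest. Both chains were above background on the shared 4 arrays and on no other. Cd4, the other coreceptor, had intensities of 889, 685, 709.9 and 853 in Fto -/- and 894, 832, 712 and 948 in Fto +/+. It was well above background everywhere, and its highest and lowest arrays, both Fto +/+, were 0.67 apart on the log2 scale. The other Cd4 probe, for the same transcript, was well above background on 0 of 8 arrays, so the probes of this gene disagree.

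Of the 7 transcription regulators of the lineage, 4 had the shared arrays highest: Tcf7, Lef1, Bcl11b and Satb1. Tcf7, which encodes the T lineage factor TCF-1, had intensities of 124, 9.80, 174 and 119 in Fto -/- and 10.3, 225, 8.13 and 8.53 in Fto +/+. Lef1, its close relative, had intensities of 132, 21.5, 166 and 126 in Fto -/- and 14.2, 208, 22.02 and 15.8 in Fto +/+. Bcl11b, needed for commitment to the T lineage, had intensities of 58.8, 7.54, 89.7 and 40.4 in Fto -/- and 9.02, 78.7, 9.93 and 9.64 in Fto +/+. Tcf7 and Lef1 were above background on the same 4 arrays as Rag1, with gaps of 3.45 and 2.41 (log2) to values near the floor. Bcl11b was above background on 3 of those 4, not on Fto -/- replicate 4.

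Satb1, a chromatin organiser of thymocytes, had intensities of 649, 455, 578 and 564 in Fto -/- and 235, 788, 239.9 and 249.4 in Fto +/+. It was measured on all 8 arrays and its gap was only 0.25, with Fto -/- replicate 2 near the others of that genotype. Tox, needed for CD4 T cell development, had intensities of 90.4, 56.3, 68.5 and 40.6 in Fto -/- and 22.7, 68.7, 29.6 and 16.9 in Fto +/+. Among its 4 highest arrays was Fto -/- replicate 2 in place of replicate 4. Ikzf1, the lymphoid factor Ikaros, had intensities of 38.9, 18.4, 23.6 and 22.7 in Fto -/- and 9.20, 12.9, 38.2 and 9.67 in Fto +/+, and was above background on 1 array.
Gata3, which guides the CD4 lineage, had intensities of 172, 71.6, 97.3 and 119.9 in Fto -/- and 139, 234, 174 and 90.1 in Fto +/+. Its highest array was Fto +/+ replicate 2 and its lowest Fto -/- replicate 2, with the genotypes mixed between them.

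Of the 4 CD3 complex genes, Cd3d and Cd3g carried the split and the only probe of Cd3e did not. Cd3d had intensities of 240.2, 27.2, 272 and 206 in Fto -/- and 11.1, 334, 10.3 and 12.1 in Fto +/+. Cd3g, its neighbour on the chromosome, had intensities of 149, 32.1, 137 and 109 in Fto -/- and 10.8, 140.3, 8.44 and 7.76 in Fto +/+. Cd3g was also above background on Fto -/- replicate 2, which made that aorta intermediate for this gene. Cd3e had intensities of 821, 558, 917 and 780.5 in Fto -/- and 791, 864, 626 and 746 in Fto +/+, a spread of 0.92 (log2) with every array well above background. With no second probe to compare, whether all of that signal is Cd3e RNA was not tested. Cd247, the zeta chain, had intensities of 6.86, 7.004, 11.1 and 8.43 in Fto -/- and 18.4, 12.2, 9.30 and 8.62 in Fto +/+, not well above background on any array, so this probe gives no order. A second Cd247 probe was above background on 1 array, Fto -/- replicate 4.

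The signalling genes next to the receptor were the group in which all 4 members had the shared arrays highest. Lck, the kinase that starts receptor signalling, had intensities of 974, 71.96, 1275 and 761 in Fto -/- and 85.7, 1557, 99.96 and 287 in Fto +/+. It was well above background on all 8 arrays, its highest level was 19.3-fold its lowest, and Fto +/+ replicate 4 was the brightest of the other arrays. Zap70, the kinase that Lck activates, had intensities of 168, 40.8, 187 and 157 in Fto -/- and 24.7, 210.3, 44.2 and 35.3 in Fto +/+. Lat, the adaptor that both kinases feed, had intensities of 155, 46.1, 187 and 136 in Fto -/- and 29.2, 227, 22.7 and 21.3 in Fto +/+. Both genes were higher on the shared 4 arrays by gaps of 1.84 and 1.498 (log2), for Zap70 against arrays not well above background. Themis, a thymocyte selection protein, had intensities of 25.96, 8.29, 46.6 and 12.7 in Fto -/- and 9.56, 44.4, 10.9 and 10.1 in Fto +/+, above background on Fto -/- replicate 3 alone.

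Averaged as a group, the surface receptors varied least between arrays, though single genes spanned from 0.70 (log2) for Cd28 to 2.45 for Cd5. Cd2, an adhesion receptor, had intensities of 195, 33.5, 154 and 147 in Fto -/- and 52.4, 127, 48.3 and 38.1 in Fto +/+. Cd5, a brake on receptor signalling, had intensities of 153, 56.8, 176 and 172 in Fto -/- and 40.8, 218, 47.5 and 37.1 in Fto +/+. Cd6, related to Cd5, had intensities of 203, 85.8, 205 and 276 in Fto -/- and 125, 275, 115 and 138 in Fto +/+. All 3 had the shared arrays highest, with gaps of 1.13, 1.22 and 0.33 (log2).

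Cd27, a costimulatory receptor, had intensities of 24.4, 7.68, 31.6 and 22.5 in Fto -/- and 8.95, 33.7, 9.47 and 9.22 in Fto +/+, with the same order but no array well above background. Cd28, the main costimulatory receptor, had intensities of 153, 81.4, 117 and 118 in Fto -/- and 144, 137, 111 and 100.02 in Fto +/+, and its arrays were within 0.70 (log2) of each other. Thy1, a surface protein of thymocytes that neurons and some stromal cells also carry, had intensities of 14152, 7268, 10499.7 and 9476 in Fto -/- and 8648, 6974, 7084 and 5104 in Fto +/+. Fto +/+ replicate 1 was among its 4 highest and Fto +/+ replicate 2 was not. Cd1d1, which presents lipids and is found on many cell types, had intensities of 616, 464, 1192 and 1129.7 in Fto -/- and 392, 331, 1152 and 615 in Fto +/+, and here Fto +/+ replicate 2 was the lowest array.

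A second probe existed for 16 of the genes, 17 probes in all. Of the 17, 9 were not well above background on any array, and of the remaining 8, 3 had the shared 4 arrays highest, those of Bcl11b, Lef1 and Zap70. The second Rag1 probe was above background on 1 array and did not show the order of the first.

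Developing and mature T cell genes moved together, with a wider swing in the developing list under the main scaling. Each gene was first centred on its own mean over the 8 arrays (log2), and the level of a list is the average of these centred values on an array. The developing list stood at 0.93, -0.96, 1.57 and 0.66 in Fto -/- replicates 1 to 4 and at -1.28, 1.20, -1.06 and -1.07 in Fto +/+ replicates 1 to 4. The mature list stood at 0.75, -0.72, 1.11 and 0.72 in Fto -/- and at -0.87, 0.80, -0.997 and -0.79 in Fto +/+. From lowest to highest array the developing list spanned 2.85 and the mature list 2.10. With normexp background correction and quantile scaling the spans were 1.19 and 1.05, so their size and the difference between them depend on the background correction. The same 4 arrays were highest in both lists, and both fall into a low and a high set with nothing between, so no correlation over the 8 arrays is given. Genes at the floor on the dark arrays had no measured low value, so neither span is the full range of the RNA.

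**Figure D2:**
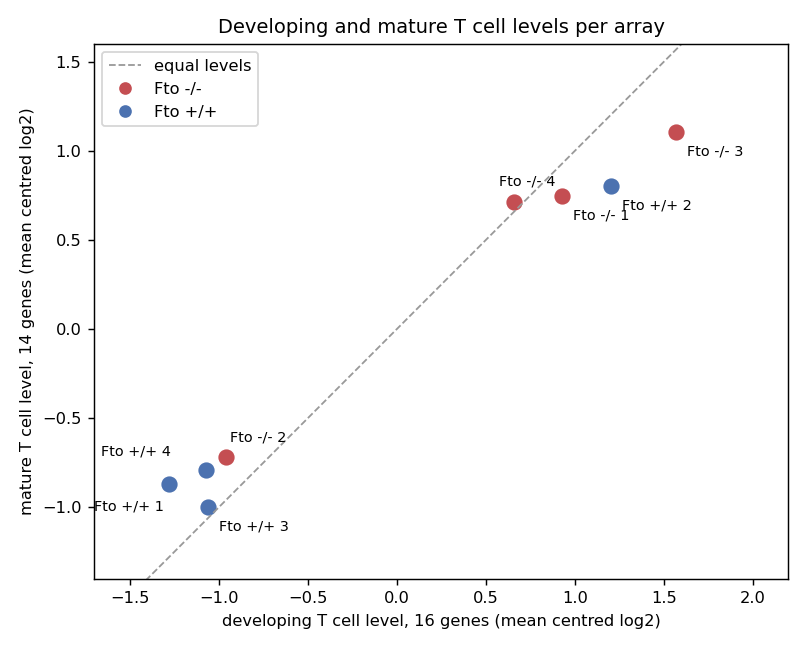
Level of the 14 mature T cell genes (vertical axis, mean centred log2) against that of the 16 developing genes (horizontal axis, same unit), 1 point per array, red for Fto -/- and blue for Fto +/+, with a dashed line where both are equal. Of the arrays, 4 lie at 0.66 or more and 4 at -0.96 or less on the developing axis, and each set holds both genotypes.

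By role, the span between the lowest and highest array was 3.28 for the proximal signalling genes, 3.14 for recombination and pre-receptor genes, 2.98 for the coreceptors, 2.75 for the CD3 complex, 2.43 for the transcription regulators and 1.49 for the surface receptors. These spans depend on how many members sit on a flat or dim probe, such as Cd4 in the coreceptors and Cd247 in the CD3 complex. They also shrink where members move in different directions, as Cd1d1 does among the surface receptors.

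Among the 4 bright arrays the balance of developing to mature genes differed. The comparison used the 21 members above background on all 4 of them, 9 developing and 12 mature. Against Fto -/- replicate 4, Fto +/+ replicate 2 had the developing genes higher by a median of 0.62 and the mature genes by 0.06 (log2). Cd8b1 differed by 1.85 in that direction and Cd1d1 by -2.07. Fto -/- replicate 3 was above replicate 4 by medians of 0.74 and 0.38, and above replicate 1 by 0.67 and 0.42. Between Fto +/+ replicate 2 and Fto -/- replicate 3 the medians were -0.16 and -0.23. Fto -/- replicate 1 and replicate 4 were close, with medians of 0.06 and 0.14. Each is a difference between 1 array and another, with no replicate.

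Only 10 of the 30 members were measured on all of the other 4 arrays, so the order there is mostly not known. Tox, Cd3g and Lat were above background on Fto -/- replicate 2 and on none of Fto +/+ replicates 1, 3 and 4. Cd3g read 32.1 on that array, against 7.76 to 10.8 on those 3. Lck, measured on all of them, was the brightest in Fto +/+ replicate 4.

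Lists of other cell types were read on the same arrays to show what moved with the T cell genes, and nothing here tests their part in the pattern. Among 17 further thymocyte genes, 7 had the shared 4 arrays highest, among them Ccr9 and Myb. Their level was 0.27, -0.23, 0.73 and 0.32 in Fto -/- and -0.68, 0.52, -0.52 and -0.41 in Fto +/+. The 2 members of highest level, Bcl6 and Plxnd1, are genes of many tissues and did not have this order.

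Genes of thymic epithelium, the stroma of the thymus, did not show the order of the T cell genes, but most were too dim to follow on every array. Of 15, 6 were well above background on no array and only 4 on all 8. None of 15 had the shared arrays highest, and the list level ranged from -0.35 to 0.26. Foxn1, Psmb11 and Aire, which define these cells, were not well above background on any array, and neither were Krt8, Epcam and Ly75. Prss16, a protease of cortical epithelium, was above background on Fto -/- replicate 1 alone, at 95.6. The 2 brightest of the list, Trp63 and Pax1, were above background on all 8 arrays and neither had that order. No parathyroid gene of 3, Gcm2 and Casr included, was above background on any array.

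General leukocyte genes and cell cycle genes moved in part with the T cell genes. Of 10 leukocyte genes, 8 had the shared arrays highest, Arhgdib, Coro1a and Ptprc among them, and all 8 were above background on every array. Their list level was 0.75, -0.55, 0.51 and 0.48 in Fto -/- and -0.12, -0.02, -0.24 and -0.81 in Fto +/+, so that Fto +/+ replicate 2 was only slightly above Fto +/+ replicate 1. Of 16 cell cycle genes, 10 had the same order, Mki67 and Rrm2 among them, while Pcna did not. Their level was 0.41, -0.35, 0.59 and 0.20 in Fto -/- and -0.12, 0.12, -0.33 and -0.51 in Fto +/+.

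In other immune lists the order was found in fewer genes, beside 2.41% of all tested probes. It was seen in 0 of 12 B cell genes, with Ebf1 and Cd22 the brightest, 1 of 12 macrophage genes, with Csf1r and C1qc the brightest, and 1 of 8 dendritic cell genes, with Siglech and Batf3 the brightest. It was seen in 2 of 12 cytotoxic and NK genes, of which Nkg7 and Gzmk were the brightest, in 2 of 8 naive T cell genes, with Klf2 and Igfbp4 the brightest, and in 1 of 6 regulatory T cell genes, with Ikzf2 and Tnfrsf18 the brightest. Ccr7, a homing receptor of naive T cells, was above background on 2 arrays and is one of the naive genes with that order. The level of the naive list was 0.37, -0.02, 0.45 and 0.18 in Fto -/- and -0.58, 0.24, -0.002 and -0.65 in Fto +/+, so that its 4 highest arrays were the shared ones. The macrophage level was lowest in Fto +/+ replicate 4 at -1.21 and highest in Fto -/- replicate 1 at 0.72.

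Vessel and fat lists had other orders. Smooth muscle genes, led by Acta2 and Tagln, spanned 0.38 over the 8 arrays, and endothelial genes, led by Vwf and Nos3, spanned 0.82. The brown adipocyte level, led by Cidea and Cox8b, was 0.50, -0.38, 1.62 and 1.31 in Fto -/- and -1.26, -1.25, -0.18 and -0.37 in Fto +/+. It was high in the same 3 Fto -/- aortas as the T cell genes but low in Fto +/+ replicate 2. White adipocyte genes, led by Cfd and Fabp4, and skeletal muscle genes, led by Acta1 and Pvalb, had the shared order in 0 of 9 and 0 of 8. Among lymphatic endothelial genes Pdpn had it, and Lyve1 did not.

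**Figure D3:**
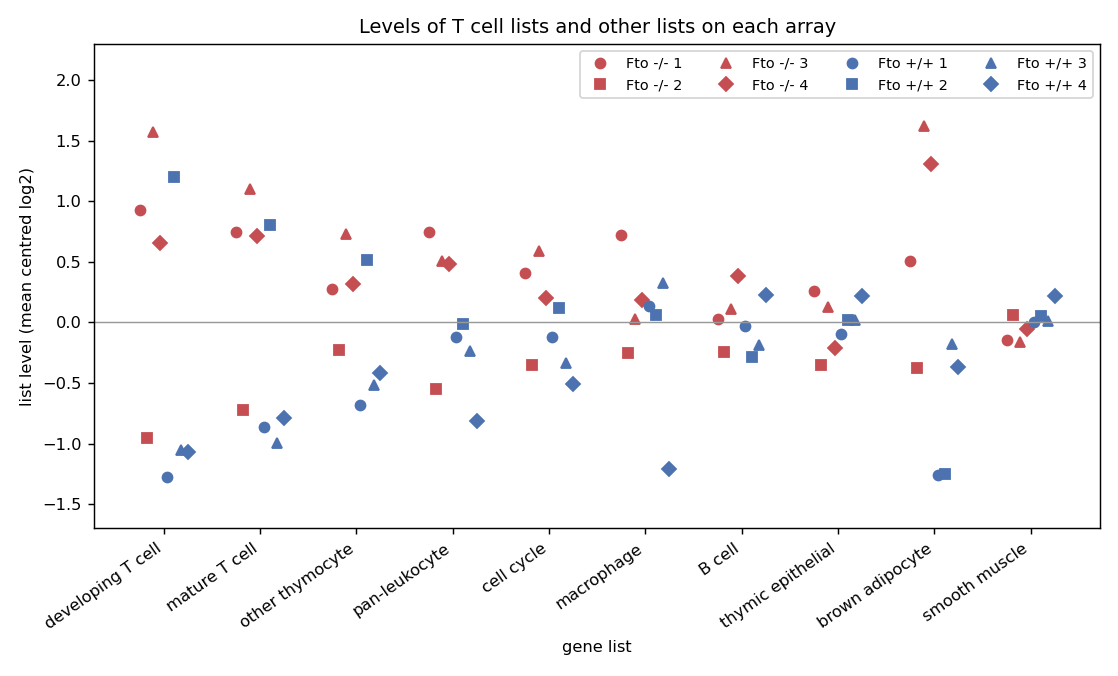
Level of 10 gene lists (horizontal axis) on each of the 8 arrays (vertical axis, mean centred log2), with red symbols for Fto -/-, blue for Fto +/+ and 1 symbol shape per replicate number. The developing and mature T cell lists separate 4 arrays from 4, the blue square of Fto +/+ replicate 2 falls to -1.25 in the brown adipocyte list, and the smooth muscle list stays between -0.16 and 0.22.

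Genes outside the list whose pattern was most like that of Rag1 were found by the root mean square difference of log2 levels over the 8 arrays, each gene centred on its mean. The 12 nearest named genes lay at 0.09 to 0.99, among them Nsg2, Ccr9, Ly6d, Myb, Rasgrp1, Sh2d1a, Skap1, Gfi1, H2-T3, Fam78a and Gpr132, against a median of 2.03 over 30434 probes above background on at least 1 array. Nsg2, a vesicle protein gene best known from neurons, was the nearest, with intensities of 106, 6.77, 147 and 89.4 in Fto -/- and 7.97, 169, 9.04 and 8.24 in Fto +/+. Ccr9, the receptor that draws progenitors to the thymus, had intensities of 147, 21.1, 243 and 127 in Fto -/- and 12.1, 279, 22.5 and 20.4 in Fto +/+, at a distance of 0.44.
Of the members, Tcf7 was the nearest to Rag1 at 0.22, followed by Cd8a and Dntt at 0.34, Cd8b1 at 0.35, and Cd3d and Lef1 at 0.52. Cd4 at 2.02, Cd1d1 at 2.05 and Cd247 at 2.09 lay at about the median of all probes. Rag2 lay at 1.40. Of the 50 nearest probes, 14 belonged to 12 of the members and 10 had no name.

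**Figure D4:**
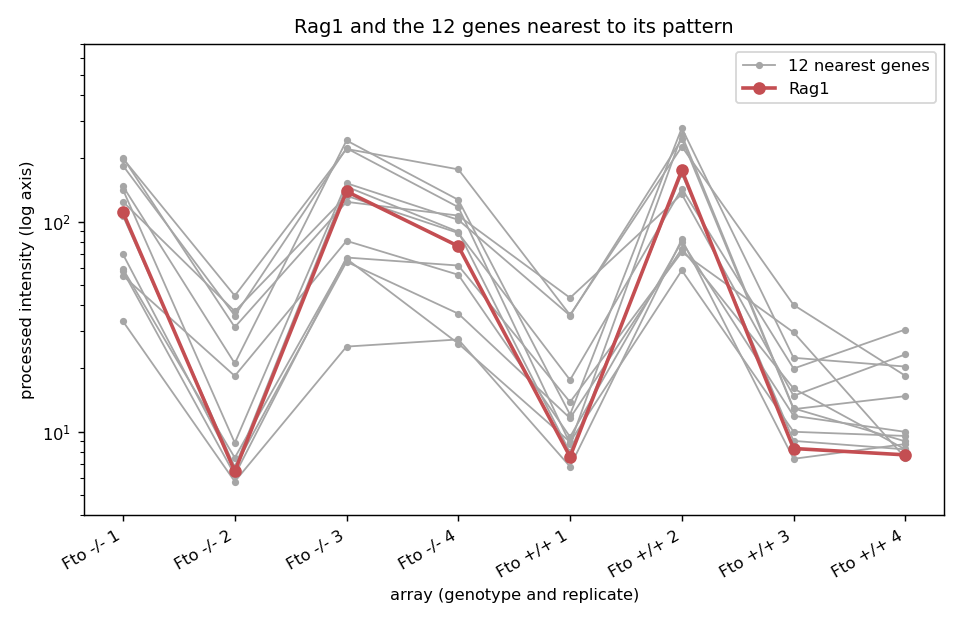
Background-subtracted intensity (vertical log axis) of Rag1 (red) and the 12 nearest genes outside the list (grey) on the 8 arrays (horizontal axis), 1 line per gene. All the lines are high on Fto -/- replicates 1, 3 and 4 and Fto +/+ replicate 2, where Rag1 read between 76.4 and 175, and low on the other arrays, where it read between 6.48 and 8.32.

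The comparison of Fto -/- with Fto +/+ asks which genes of the aorta differ with loss of Fto. No T cell gene passed the threshold, and none separated the genotypes: in all 30 the ranges of the 2 genotypes overlapped. By limma with Benjamini-Hochberg adjustment over 25304 probes, 0 of the 22 tested members had an adjusted p under 0.05, where 1.7% of all tested probes did (0.838% higher and 0.862% lower in Fto -/-). Those calls were 212 higher and 218 lower, and with arrays scaled over probes above background on all 8 they were 272 and 157. Before adjustment 4 of the 22 had p under 0.05, against 19.1% of all probes, and all 4 were higher in Fto -/-, as were 8.33% of all probes at that p. Of all tested probes 12.2% had genotypes that did not overlap, 4.45% with Fto -/- the higher.

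Direction was nearly the same throughout. In 21 of 22 tested members the mean was higher in Fto -/-, where 46.1% of all tested probes were, and the median log2 difference was 1.20, against -0.02 for all tested probes. With normexp background correction the median of the members was 0.616, with Rag1 at 0.63, Cd3d at 0.91, Cd3g at 0.84 and Tox at 0.35, and 0 members past the threshold. Under the main scaling the median was 1.56 for the 10 tested developing genes and 1.12 for the 12 mature ones. Of the 4 high arrays, 3 are Fto -/- and 1 is Fto +/+, so members that share those arrays share this direction and are not separate observations of it. For 7 tested members those were the only arrays above background, and only through them did these genes reach the minimum of 4 arrays. The members were also chosen with the pattern in view, so the count of directions is not set against the share of all probes as evidence.

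Rag1 had a level of -2.48 ± 2.04 in Fto -/- and -4.26 ± 2.13 in Fto +/+ (SD, n = 4, log2 relative to the 75th percentile of the array). The difference of 1.78 ± 1.23 (SE) was smaller than the spread within either genotype, with an adjusted p of 0.458 by limma. Cd3d differed by 2.57 ± 1.18 (SE) and Cd3g by 2.53 ± 0.89, with adjusted p of 0.279 and 0.181 by limma. Tcf7 differed by 1.98 ± 1.23, Dntt by 1.87 ± 1.30 and Lck by 1.20 ± 1.12 (SE), none past the threshold. For Rag1, Cd3d, Cd3g and Tcf7, 3 of the 4 Fto +/+ arrays were not well above background, so these differences are against values near the floor and their sizes are not exact.

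The members with p under 0.05 before adjustment were Thy1, Tox, Cd3g and Satb1. Thy1 differed by 0.72 ± 0.19 (SE), with the lowest adjusted p of the members, 0.0971 by limma. Tox differed by 1.21 ± 0.37 and Satb1 by 0.94 ± 0.34 (SE), with adjusted p of 0.136 and 0.184 by limma. Thy1 and Tox are not among the genes with the shared 4 arrays highest. For Thy1 a single Fto +/+ aorta, replicate 1, lay above the lowest Fto -/- aorta, and for Tox a single one did, replicate 2.

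Cd4, Cd28 and Cd3e were nearly equal in the genotypes, with differences of 0.05 ± 0.15, 0.08 ± 0.17 and 0.17 ± 0.19 (SE). Gata3 was the only tested member with a lower mean in Fto -/-, at -0.29 ± 0.27 (SE, adjusted p = 0.576 by limma). The other 8 members were not tested because fewer than 4 arrays were above background: Rag2, Ptcra, Arpp21, Themis, Ikzf1, Bcl11b, Cd247 and Cd27. Rag2 and Bcl11b were above background on 2 and 3 arrays, of both genotypes. Ptcra, Arpp21, Ikzf1 and Themis were above background in no Fto +/+ aorta and in 1 of 4 Fto -/- aortas. For these genes each Fto +/+ array was set at the lowest signal well above background, or at its own value if higher. The Fto -/- values stayed as measured. The Fto -/- mean was then 1.504-fold higher for Ptcra, 1.26-fold for Arpp21 and 1.14-fold for Ikzf1, while Themis gave no fold above 1. In Fto -/- 3 of the 4 values of each gene were dim themselves and may be lower than read. These folds are therefore not lower bounds, and the genotypes overlapped.

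The count of calls depended on Fto +/+ replicate 2. Without it, Satb1 (log2 difference 1.32, adjusted p = 0.0215 by limma) and Cd3g (3.47, adjusted p = 0.0338 by limma) passed the threshold, among 103 probes higher and 75 lower. Then 15 of 22 members had p under 0.05 before adjustment, where 3908 of all 25304 tested probes did, and the median difference was 1.83. Without Fto -/- replicate 2 the number with p under 0.05 was also 15, where 5091 of all tested probes had it, with 0 members past adjustment. These arrays are the only high Fto +/+ array and the only low Fto -/- array of the shared pattern. Leaving either out widens the difference in members chosen with that pattern in view, so these counts are no test. The 8 arrays lay on 1 slide in 2 rows. With the row as a block the median difference of the members was 1.67, with 0 members past the threshold, where 33 of the 25304 probes passed as higher and 14 as lower. Within row 1 (3 Fto -/- arrays and 1 Fto +/+) the median difference was 1.95 and within row 2 (1 and 3) 1.35. A genotype with a single array gives no usable test, so only these sizes are given.

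**Figure D5:**
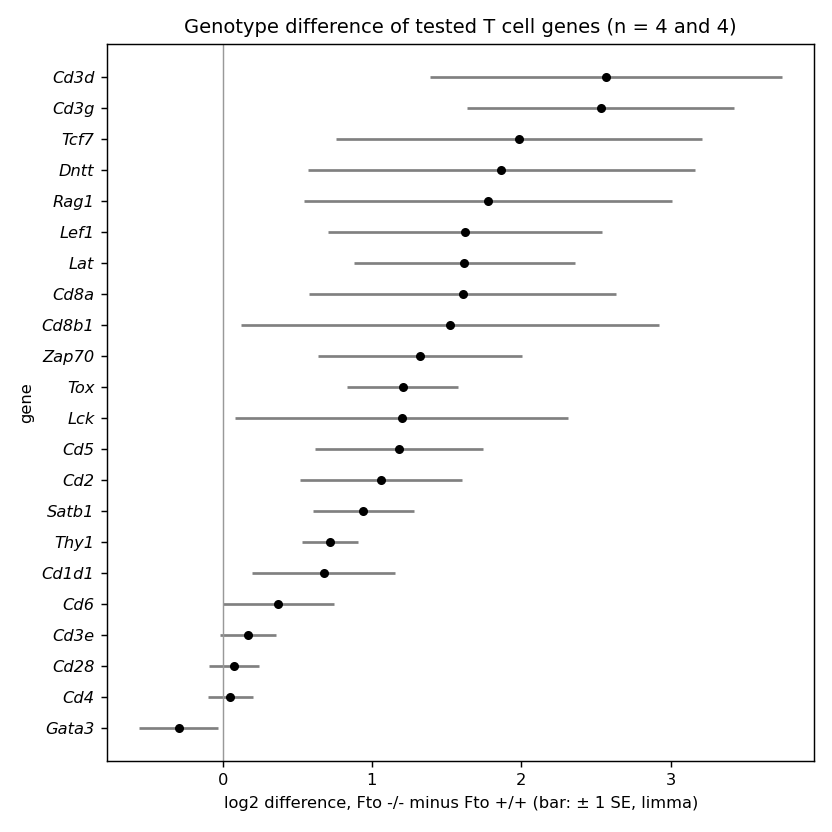
Log2 difference between Fto -/- and Fto +/+ (horizontal axis) for the 22 tested T cell genes (vertical axis), with bars of 1 standard error from limma, n = 4 and 4. The points run from -0.29 for Gata3 to 2.57 for Cd3d, 21 of 22 lie right of 0, and none passed an adjusted p of 0.05.

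Of the other lists 1 gene rose. Ccl19, the ligand of CCR7 and a product of lymphoid stroma, had intensities of 3211, 3054, 3042 and 3307 in Fto -/- and 1876, 1597, 1779.7 and 1071 in Fto +/+, and was higher in Fto -/- by 1.19 ± 0.14 (SE, adjusted p = 0.0098 by limma), with no overlap of the genotypes. It did not follow the T cell genes: Fto -/- replicate 2, dark for Rag1, was as bright for Ccl19 as the other Fto -/- aortas. No tested gene of the further thymocyte, thymic epithelial, leukocyte, macrophage, B cell, cell cycle or fat lists passed the threshold.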

How the data were processed

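Total RNA of 8 thoracic aortas was hybridised to 1-colour arrays. Per the file headers, the deposited intensity of each spot was background-subtracted by Feature Extraction 11.0.1.1 and not scaled between arrays. The series table deposited by the authors holds log2 values with each probe centred on its median, made by a normalization that the sources used here do not name. It followed the scanner values (r of 0.983 to 0.997 by array, column medians from -0.0095 to 0.0049) and served as an alternative.

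Outlier and control spots were left out, spots of a probe averaged, and log2 intensities set relative to the 75th percentile of each array. Probes were named through RefSeq (GRCm38.p6), 28325 of 55681. The 25304 probes well above background on at least 4 arrays were tested by limma 3.58.1 in R 4.3.3, with Benjamini-Hochberg adjustment and a threshold of 0.05, after a test on simulated data. The number of arrays limits the precision. No array pair was identical among 28 (r 0.977 to 0.993).

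The members, the gene lists and the tests were chosen with earlier results of these data known. Named genes were all 30 members, the 12 named genes nearest to Rag1, of each other list the members past the threshold and the 2 brightest, and Fto. Other genes named were chosen after their values were seen. Some genes that this rule selects are not reported here.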

Additional observations from a re-analysis of the deposited data

Results flagged for a closer look

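Within each genotype, the 30 genes and the 2 list levels were checked for an array far from the other 3, by the gap to the nearest array divided by the whole range, against the limit of Dixon's test for 4 arrays. Of 64 groups 17 passed it. Chance flags about 1 in 20 groups, but the groups share arrays and the genes were chosen with this pattern known, so the count is a description and no test. Fto +/+ replicate 2 was the high array in 14 of them, and for every gene of these apart from Cd5 the other 3 Fto +/+ arrays were not well above background. Themis and Cd27 were not above background on any Fto +/+ array. The ratio was 0.942 for Rag1, 0.939 for Cd8b1, 0.935 for Cd8a, 0.92 for Tcf7, 0.916 for Cd5, 0.901 for Cd3g, 0.899 for Cd3d and 0.893 for Bcl11b. It was 0.877 for Lat, 0.852 for Themis, 0.849 for Cd27 and 0.838 for Lef1, and 0.911 and 0.885 for the levels of the developing and the mature list. Fto +/+ replicate 3 was high for Ikzf1, with a ratio of 0.833 and no Fto +/+ array well above background. In Fto -/- replicate 2 was the low array for Cd2, with a ratio of 0.889, and for Cd3d, with 0.83.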

How the results depend on the processing

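The signs of the member differences and their side of the threshold were kept under every alternative run, apart from those named here. For the fits within a slide row only the signs are compared, since a genotype had a single array there. Satb1 and Cd3g passed without Fto +/+ replicate 2, and leaving out 1 array at a time gave 0 to 2 members past the threshold and a median difference of 0.957 to 1.83. The difference of Cd28 was -0.0045 without Fto -/- replicate 1 and -0.166 within slide row 1, and that of Cd4 was -0.0078 without Fto +/+ replicate 2, -0.0434 without Fto +/+ replicate 3 and -0.0592 within slide row 1. Leaving out 1 array at a time, Cd28 ran from -0.0045 to 0.229 and Cd4 from -0.0434 to 0.18. With normexp background correction on the median signal and quantile scaling, an alternative chosen after seeing the data, the list ranges were 1.19 (developing) and 1.05 (mature), the median difference was 0.616 and 18 genes had the shared arrays highest; the cause was not tested. The planned version on the mean signal was not run. Deviations of same-numbered arrays correlated at 0.155, -0.024, -0.019 and -0.041, which shows no pairing by replicate number but cannot exclude it. With the replicate block 0 members passed and the median difference was 1.20. Calls over all probes were 212 higher and 218 lower, and 272 and 157 with the percentile taken over probes above background on all arrays. They were 92 and 46 with the replicate block, 33 and 14 with the slide row as a block, 92 and 77 with probes above background on at least 1 array and 59 and 36 with no filter. Leaving out 1 array gave 54 to 491 higher and 50 to 414 lower. Signal over background limits 20 of the 30 genes, which were not measured on all 8 arrays.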

Other observations

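Some genes outside the members had orders of their own, and these were picked out after their values were seen. Foxp3, the factor of regulatory T cells, had intensities of 20.3, 7.73, 13.96 and 12.0 in Fto -/- and 8.90, 24.1, 364 and 96.7 in Fto +/+, and was well above background on Fto +/+ replicates 3 and 4 only, which were dark for Rag1. Of the thymic epithelial genes, 3 were brightest in Fto -/- replicate 1. Prss16 had intensities of 95.6, 8.30, 11.7 and 9.44 in Fto -/- and 9.28, 11.2, 10.6 and 9.96 in Fto +/+. Krt5, a keratin of basal epithelium, had intensities of 83.4, 6.99, 28.6 and 7.54 in Fto -/- and 23.3, 38.5, 15.2 and 15.0 in Fto +/+. Ccl25, the ligand of CCR9, had intensities of 347, 53.1, 134 and 48.9 in Fto -/- and 103, 134, 171 and 115 in Fto +/+, with every array well above background. Foxn1, the factor that defines thymic epithelium, had intensities of 6.73, 6.84, 6.65 and 8.14 in Fto -/- and 8.10, 9.77, 9.03 and 8.53 in Fto +/+ and was above background on none.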
